A study of Caenorhabditis elegans with 4 samples.

Results

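The genes described here are those on the 2 arms of chromosome V of Caenorhabditis elegans, taken from the deposited gene table as the rows of chromosome V that start below position 6500000 (the left arm) or above position 14500000 (the right arm). Genes of the expanded families whose names begin with clec, fbxa, math, bath, str, nhr, col, his or msp were left out, which removed 389 of the 3044 arm genes. The remaining 2655 genes, of 20389 in the table, comprised 1364 on the left arm and 1291 on the right arm. The 2076 genes between the arms, called the centre of V here, served for comparison. The rule itself uses position and name and no measured value.

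Messenger RNA was sequenced from dissected gonads of young adult hermaphrodites, whose age was timed from the last larval stage, L4. The 4 libraries were 2 from met-2(n4256);him-8(tm611) animals and 2 from him-8(tm611) animals, so both groups carried the him-8 mutation, which leaves X chromosomes unpaired in meiosis, and no wild-type gonad was included. The comparison asks which transcripts differ in the germ line when the methyltransferase MET-2, and with it most dimethylation of histone H3 on lysine 9 (H3K9me2), is missing. Each library pooled many gonad arms cut at the spermatheca, which therefore also held the somatic sheath cells, and each genotype was 1 strain.

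H3K9me2 is a histone mark of heterochromatin, and MET-2 is the worm relative of the mammalian enzyme SETDB1. On C. elegans autosomes the arms carry more repeats, more H3K9 methylation and more meiotic crossovers than the centres, while genes used in every cell are more common in the centres. The arms of V are known for large tandem families, above all those of the chemoreceptors, seven-pass membrane proteins that act mostly in sensory neurons.

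The 4 libraries held between 14255714 (him-8 replicate 2) and 49848078 (him-8 replicate 1) estimated reads. Levels are given as CPM, counts per 1000000 reads after TMM scaling of library sizes, and, where genes are compared with each other, as CPM per kilobase of merged exon. The met-2 transcript measured 25.8 and 52.8 CPM in met-2;him-8 and 127 and 212 CPM in him-8. The summed level of 10 germline markers ranged from 12685 to 16446 CPM over the libraries, and that of 5 body muscle markers from 57.2 to 204 CPM, so the tissue label held. The 10 intestinal markers summed to 1002 and 739 CPM in met-2;him-8 against 638 and 569 CPM in him-8, and the 5 body muscle markers to 90.9 and 204 CPM against 80.1 and 57.2 CPM. The intestinal regulator elt-2 was between 0.0731 and 0.733 CPM in every library, and vit-2 and vit-6, of the yolk proteins, were the 2 of the 10 intestinal markers at an unadjusted p below 0.05. The 5 sheath markers summed to 199 and 171 CPM in met-2;him-8 against 242 and 250 CPM in him-8, lower in both met-2;him-8 libraries. Most of that sum was the gap junction gene inx-8, the 1 sheath marker at an unadjusted p below 0.05 by edgeR's quasi-likelihood test. The sheath markers did not move together. While inx-9 was lower too and lim-7 overlapped, ceh-18 and mup-2 were higher in both met-2;him-8 libraries. For ceh-18 the values were 2.75 and 1.77 CPM against 1.47 and 0.804 CPM, and for mup-2 39.1 and 33.8 CPM against 31.7 and 25.4 CPM. The 4 spermatheca markers summed to 351 and 1504 CPM against 527 and 761.6 CPM, nearly all of it fln-1. What part these cells have in the results was not tested. Fewer cells of a type and less RNA per cell cannot be told apart in such bulk samples.

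Most arm genes had few or no reads in the gonad. On the left arm 470 genes (34.5%) passed the expression filter and on the right arm 369 (28.6%), compared with 887 (42.7%) of the centre of V, 59.7% of the genes in the outer segments of chromosomes I to IV (the first and last of 3 equal lengths) and 53.3% of all genes. No read was listed in any library for 392 left-arm genes (28.7%) and 426 right-arm genes (33.0%), against 19.7% in the centre and 15.9% of all genes. A further 502 and 496 genes had some reads but fell below the filter. A listed 0 is not always a measured absence, since all 76 genes named as ribosomal proteins in the genome, 5 of them on the arms of V, were listed at 0 in every library.

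**Figure D1:**
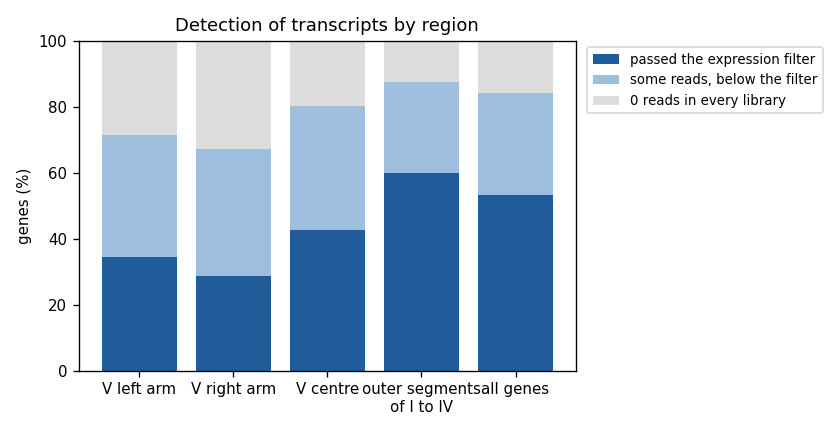
The percentage of genes in each region that passed the expression filter, had some reads below it, or had 0 reads in every library. The share that passed was 34.5% on the left arm and 28.6% on the right arm, against 42.7% in the centre of V and 53.3% of all genes.

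The tested arm genes also had lower transcript levels than the tested genes as a whole. Their median level was 4.82 CPM per kilobase on the left arm and 4.95 on the right arm. The median was 9.13 in the centre of V, 17.5 in the outer segments of chromosomes I to IV and 10.8 over all genes tested. On chromosome X the median was lower than on the arms, at 2.18. By library the left-arm median was 5.64 and 4.47 CPM per kilobase in met-2;him-8 and 5.06 and 3.55 in him-8, and the right-arm median was 6.45 and 4.46 against 4.52 and 4.04. The libraries of the 2 genotypes overlapped on the left arm, and on the right arm 1 him-8 library lay above 1 met-2;him-8 library. Tested genes at 10 CPM per kilobase or more numbered 198 on the left arm and 163 on the right arm.

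The chemoreceptors made up the largest of the gene lists on the arms, with 571 members of 1142 in the genome. Of these 339 were listed at 0 reads in every library, and only 9 (1.58%) passed the filter, compared with 2.45% of the chemoreceptor genes of the whole genome. The highest of the tested members per kilobase on the left arm, sre-9, measured 3.16 and 1.65 CPM in met-2;him-8 and 1.16 and 1.02 CPM in him-8. On the right arm sre-36 measured 0.777 and 0.690 CPM against 0.328 and 0.585 CPM. Both lay higher in met-2;him-8 in every library, but at these levels neither reached an unadjusted p below 0.05 by edgeR's quasi-likelihood test, and the 9 log2 fold changes had a median of -0.09.

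On the right arm the highest mean levels per kilobase were those of cyn-7 (4315 CPM per kilobase), a cyclophilin or peptidyl-prolyl isomerase, daf-21 (2526), the HSP90 chaperone, fib-1 (2193), the nucleolar methyltransferase fibrillarin, and prmt-1 (1066), an arginine methyltransferase. On the left arm they were lbp-9 (2208 CPM per kilobase), a lipid-binding protein, T19H12.2 (1947), ife-3 (1064), an isoform of the cap-binding factor eIF4E, and T22F3.3 (792), the glycogen phosphorylase pygl-1. The fib-1 transcript measured 2820.5 and 3523 CPM in met-2;him-8 and 3194 and 2522 CPM in him-8, and the 2 genotypes overlapped. For ife-3 the values were 1121 and 1592 CPM against 1137 and 907 CPM, which overlapped too.

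No arm gene passed an adjusted p of 0.05 in the comparison of met-2;him-8 with him-8 on either arm (edgeR quasi-likelihood test, Benjamini-Hochberg adjustment), and neither did any of the 10875 genes tested (0%). The lowest adjusted p on the arms was 0.886. DESeq2 on the same genes called 26 genes of the genome (0.271% of those it gave an adjusted p, with 0.125% higher) and 5 on the arms, of which M02H5.8, gst-38, C18D4.6 and Y37H2A.10 were higher and hsp-16.2 was lower in met-2;him-8. Unadjusted p-values below 0.05 by edgeR's quasi-likelihood test are therefore reported as a description, beside the share over all genes tested.

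By that measure 21 left-arm genes (4.47%) were higher in met-2;him-8 and 11 (2.34%) lower, and 17 right-arm genes (4.61%) were higher and 9 (2.44%) lower. Over all genes tested the shares were 1.83% higher and 3.01% lower, or 4.84% in both directions. In the centre of V 11 genes (1.24%) were higher and 27 (3.04%) lower, and in the outer segments of chromosomes I to IV 108 (2.37%) were higher and 133 (2.92%) lower. Higher values thus made up 65.5% of the 58 arm genes and 37.8% of the 526 genes of the whole table. Among the 88 tested genes of the left-out families on these arms, 1 (1.14%) was higher and 4 (4.55%) lower. With these families kept in, 21 left-arm genes were higher and 13 lower, and 18 right-arm genes were higher and 11 lower. The counts depended on the libraries. Without him-8 replicate 2 they were 5 higher and 7 lower on the arms, beside 20 and 45 over all genes. Without him-8 replicate 1 they were 15 and 8 on the arms, beside 122 and 64 over all genes, so that higher values made up 65.2% on the arms and 65.6% over all genes and the difference between them was lost. Without met-2;him-8 replicate 1 they were 91 and 58 beside 930 and 908, and without met-2;him-8 replicate 2 they were 74 and 57 beside 561 and 816.

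**Figure D2:**
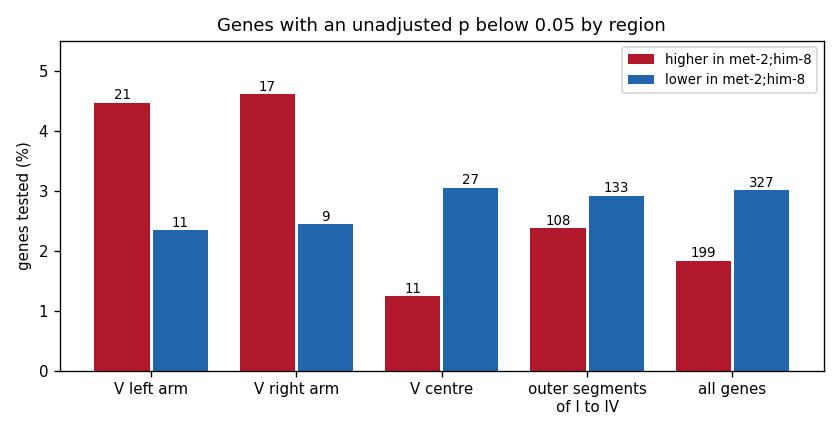
The percentage of tested genes in each region with an unadjusted p below 0.05 by edgeR's quasi-likelihood test, split by direction, with the number of genes above each bar. On both arms of V more genes were higher than lower in met-2;him-8 (21 and 11, 17 and 9), while over all genes more were lower (199 and 327).

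The same libraries can also be counted by separation of the genotypes, which is not independent of those p-values. For 103 tested genes of the left arm (21.9%) and 87 of the right arm (23.6%) the lower met-2;him-8 value exceeded the higher him-8 value, against 16.9% of all genes tested. The reverse held for 75 (16.0%) and 71 (19.2%), against 19.8%. In the outer segments of chromosomes I to IV the shares were 21.4% above and 18.5% below, close to those of the arms, and in the centre of V the counts were 110 above and 177 below. The remaining 292 left-arm and 211 right-arm genes overlapped between genotypes.

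The typical arm gene differed little between genotypes. The median log2 fold change of met-2;him-8 over him-8 was 0.12 on the left arm (quartiles -0.30 and 0.52) and 0.14 on the right arm (quartiles -0.31 and 0.47), with 58.5% and 59.3% of the genes above 0. Over all genes tested it was 0.02, with 51.5% above 0, in the centre of V -0.02, in the outer segments of chromosomes I to IV 0.07, and on chromosome X 0.21. Each met-2;him-8 library was also set against each him-8 library, with a small constant added to every CPM before the log2 ratio. The constant shrinks the ratios of genes at low levels, so these medians and the edgeR medians are not the same measure. In these pairs the left-arm median ranged from -0.00 to 0.15 and the right-arm median from -0.02 to 0.13. The pair medians thus lay on both sides of 0 on each arm, a spread at least as wide as the whole-arm shift in the edgeR fit.

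Along the left arm the median log2 fold change was larger toward the end of the chromosome. In the megabase next to the border with the centre it was -0.06, followed outward by 0.04, 0.14, 0.31, 0.38 and 0.25, and it was 0.27 in the last piece. Over the 198 tested genes more than 3 megabases outward of the border the median was 0.28, and over the 272 nearer genes 0.03, a split chosen after the values were seen. Set against him-8 replicate 2 the outer genes had medians of 0.27 and 0.39, and set against him-8 replicate 1 they had medians of 0.01 and 0.08. In these single pairs the rise of the outer genes was thus seen mainly against him-8 replicate 2, the library with the fewest reads. Fits by edgeR with 1 library left out test other numbers of genes and estimate the fold change otherwise than the single pairs. In these fits the outer median was 0.14 to 0.57 and the inner median -0.10 to 0.11, and without him-8 replicate 2 they were 0.23 and 0.04. The part of depth in the gradient was not tested.

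On the right arm the profile was flatter. The medians per megabase outward of the border were 0.10, 0.18, 0.03, 0.14, 0.20, 0.23 and 0.14, and the 4 pairs of libraries gave medians of 0.04 to 0.19 for the 188 tested genes more than 3 megabases out. In that outer stretch, among genes at an unadjusted p below 0.05, 14 (7.45%) were higher and 2 (1.06%) lower, and in the inner stretch 3 (1.66%) were higher and 7 (3.87%) lower, beside 1.83% and 3.01% of all genes tested. On the left arm 14 (7.07%) were higher and 6 (3.03%) lower in the outer stretch, and 7 (2.57%) and 5 (1.84%) in the inner stretch. These counts rest on few genes and changed strongly with the library left out, as did the counts over all genes. In edgeR fits with 1 library left out the right-arm outer median was 0.14 to 0.34 and the inner median -0.01 to 0.19.

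**Figure D3:**
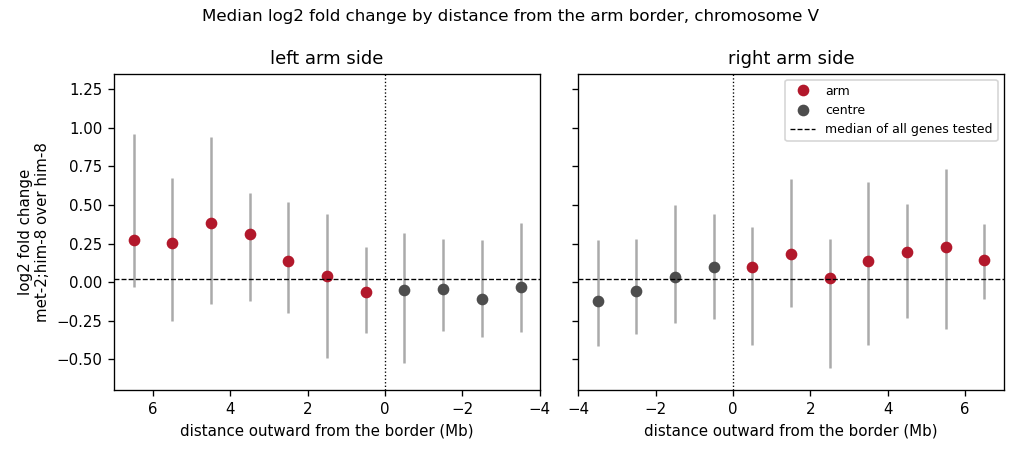
Median log2 fold change of met-2;him-8 over him-8 (points) with quartiles (lines) in steps of 1 megabase outward from each border between centre and arm, for tested genes of V, where the outermost step is shorter. Left-arm medians run from -0.06 at the border to 0.38 between 4 and 5 megabases out, and the right-arm medians stay between 0.03 and 0.23.

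At the borders themselves the innermost tested gene of the left arm was W01A11.1, which measured 105 and 89.9 CPM in met-2;him-8 and 92.9 and 130 CPM in him-8. The first tested gene beyond that border, moc-2, measured 6.11 and 9.42 CPM against 6.50 and 7.60 CPM. On the right side R02D5.1 was the first tested arm gene, at 0.259 and 0.030 CPM against 0.636 and 1.39 CPM, and R02D5.3 the last tested gene of the centre, at 1.81 and 0.240 CPM against 0.482 and 0 CPM. None of these 4 genes had an unadjusted p below 0.05 by edgeR's quasi-likelihood test.

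The share of a library's reads that came from each arm was close in the 2 genotypes. The left arm gave 3.92% and 3.93% of the reads in met-2;him-8 and 3.87% and 3.64% in him-8, so that both met-2;him-8 libraries lay higher. The exact two-sided permutation test gave p = 0.333, the smallest value that 2 libraries against 2 can give. The right arm gave 3.85% and 3.45% against 3.69% and 3.74%, which overlapped (exact permutation p = 1).

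When the tested genes of the genome were cut into 3 equal groups by mean level, at 2.15 and 41.9 CPM per kilobase, the left-arm medians of the log2 fold change were 0.09, 0.13 and 0.12 from the low to the high group. The right-arm medians were 0.09, 0.21 and 0.10, and those over all genes 0.03, 0.06 and -0.01. In the low and middle groups together 28 arm genes (4.71%) with an unadjusted p below 0.05 were higher and 7 (1.18%) lower, beside 146 (2.04%) and 179 (2.50%) over all genes. In the high group 7 of 127 left-arm genes were higher and 7 lower, and 3 of 106 right-arm genes were higher and 6 lower. Over all genes 53 of 3582 in this group were higher and 146 lower.

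Among the genes that were higher on the left arm, M02H5.8, which has no gene name, measured 9.74 and 9.21 CPM in met-2;him-8 and 2.08 and 0.658 CPM in him-8. Its log2 fold change was 2.74 with a standard error of 0.67. The abundant T19H12.2 measured 1674 and 3025 CPM against 1262 and 978 CPM, a log2 fold change of 1.07 with a standard error of 0.34. For both genes the genotypes did not overlap, and the T19H12.2 value came largely from met-2;him-8 replicate 2, without which its log2 fold change was 0.57.

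W02H5.8 stood out for close replicates, at 11.3 and 11.5 CPM in met-2;him-8 and 4.97 and 5.04 CPM in him-8 (log2 fold change 1.19, standard error 0.37). F44E7.5 measured 187 and 166 CPM against 116 and 81.3 CPM. R01B10.4, or pgap-3, a homologue of a factor that remodels the lipid anchors of surface proteins, measured 32.2 and 39.7 CPM against 21.0 and 17.7 CPM. In each of the 3 genes all met-2;him-8 values lay above all him-8 values, and each had an unadjusted p between 0.023 and 0.0275 by edgeR's quasi-likelihood test. The chondroitin proteoglycan gene cpg-8 measured 184 and 489 CPM against 145 and 142 CPM, so that 1 library carried most of its difference.

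Several left-arm genes had their highest level in met-2;him-8 replicate 1 and their lowest in him-8 replicate 2. Those listed here were not called in the edgeR fit, and were named because they were called once the replicate number entered it. Such a choice favours genes that differ between genotypes within each replicate number, so the shared pattern partly follows from it. For every gene listed, met-2;him-8 lay above him-8 within each replicate number, but the labels do not call that number a batch. The lipase gene lipl-5 measured 84.2 and 9.78 CPM in met-2;him-8 and 24.8 and 3.58 CPM in him-8. The infection response gene ZK6.11, or irg-8, measured 29.0 and 9.12 CPM against 11.4 and 2.49 CPM, and T21H3.1 measured 96.9 and 37.3 CPM against 48.6 and 9.58 CPM. The galectin gene lec-10 measured 39.7 and 18.9 CPM against 18.5 and 3.36 CPM, and F54E2.1 measured 16.0 and 3.09 CPM against 3.91 and 0.804 CPM. The genotypes overlapped for each of these except lec-10, where they nearly touched, and leaving out single libraries moved the log2 fold change of lipl-5 from -0.54 to 3.69. The summed intestinal markers were highest and lowest in the same 2 libraries (1002 and 569 CPM), and their part in these values was not tested.

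On the right arm C18D4.6 had the smallest unadjusted p of the tested arm genes by edgeR's quasi-likelihood test, 0.00132. The level was 37.5 and 40.7 CPM in met-2;him-8 and 11.5 and 10.8 CPM in him-8, a 3.50-fold higher mean (log2 fold change 1.81, standard error 0.28). Its replicates were close in both genotypes, and leaving out single libraries kept its log2 fold change between 1.74 and 1.88. C06H5.8 measured 12.4 and 7.20 CPM against 2.53 and 2.49 CPM, and the nearby C06H5.6 measured 9.74 and 4.86 CPM against 1.68 and 1.61 CPM. Both genes were higher in both met-2;him-8 libraries, and their him-8 replicates were nearly equal.

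The glutathione S-transferase gene gst-38, of a family that conjugates toxic compounds, measured 15.9 and 5.91 CPM in met-2;him-8 and 0.926 and 0.292 CPM in him-8. Its log2 fold change was 4.06 with a standard error of 0.84. Next to it among the tested genes the zinc finger gene pzf-1 measured 52.1 and 64.4 CPM against 30.9 and 15.5 CPM. Y37H2A.10 measured 3.01 and 3.99 CPM against 0.386 and 0.512 CPM, C06B8.7 measured 6.48 and 12.9 CPM against 2.41 and 0.950 CPM, and Y60A3A.19 measured 166 and 298 CPM against 108 and 98.5 CPM. The genotypes did not overlap for any of these 5 genes.

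The protease gene asp-1, an aspartyl protease of the intestine, measured 1113 and 426 CPM in met-2;him-8 and 291 and 51.1 CPM in him-8. C29F3.7 measured 56.1 and 1.20 CPM against 6.83 and 0.804 CPM. Both were again highest in met-2;him-8 replicate 1 and lowest in him-8 replicate 2. Like the left-arm genes with this pattern, both were called once the replicate number entered the fit. For C29F3.7 the log2 fold change without met-2;him-8 replicate 1 was -1.70 in place of 2.86. M04C3.3, which was below the expression filter, was the only arm gene with 0 reads in both libraries of one genotype (him-8) and at least 10 in each of the other, at 10 and 10 reads in met-2;him-8, where the whole table held 6 such genes.

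Genes with lower values in met-2;him-8 included the small heat-shock genes hsp-16.2 and hsp-16.41 of the left arm. These alpha-crystallin chaperones are induced by heat and other stress, and the genes lie head to head. The level of hsp-16.2 was 0.725 and 0.480 CPM in met-2;him-8 and 4.69 and 11.7 CPM in him-8 (log2 fold change -3.76, standard error 0.70). That of hsp-16.41 was 1.76 and 1.29 CPM against 5.38 and 10.01 CPM (log2 fold change -2.33, standard error 0.56). Both were low in both met-2;him-8 libraries, but the family has close copies, and how the counting divided reads between copies is not given in the sources used here.

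Lower values on the left arm also included genes of energy metabolism, translation and nucleotide metabolism. The complex I subunit gene nuo-5 measured 469 and 346 CPM in met-2;him-8 and 846 and 827 CPM in him-8 (log2 fold change -1.04, standard error 0.22). The GMP reductase gene F32D1.5, or gmpr-1, measured 692 and 615 CPM against 1242 and 1354 CPM, a log2 fold change of -0.99 with a standard error of 0.18. For both the genotypes were clearly apart relative to the spread between replicates. The translation release factor gene T05H4.6, or erfa-1, measured 588 and 337 CPM against 830 and 941 CPM, and F32D1.2, or hpo-18, a homologue of an ATP synthase subunit, measured 30.4 and 55.7 CPM against 78.2 and 114 CPM. The folate transporter gene folt-2 measured 18.96 and 10.4 CPM against 70.9 and 24.2 CPM, with the genotypes separated but the him-8 libraries far apart.

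On the right arm the abundant cyn-7 measured 2182.5 and 1699 CPM in met-2;him-8 and 3222 and 3858 CPM in him-8 (log2 fold change -0.87, standard error 0.22). The tryptophanyl-tRNA synthetase gene wars-1 measured 167 and 116 CPM against 251 and 282 CPM. Y59A8B.10, or nova-1, a homologue of the NOVA RNA-binding proteins, measured 118 and 105 CPM against 173 and 186 CPM, and Y102A5C.36 measured 16.0 and 9.30 CPM against 35.2 and 27.0 CPM. All 4 genes were lower in both met-2;him-8 libraries, with log2 fold changes between -1.30 and -0.69.

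**Figure D4:**
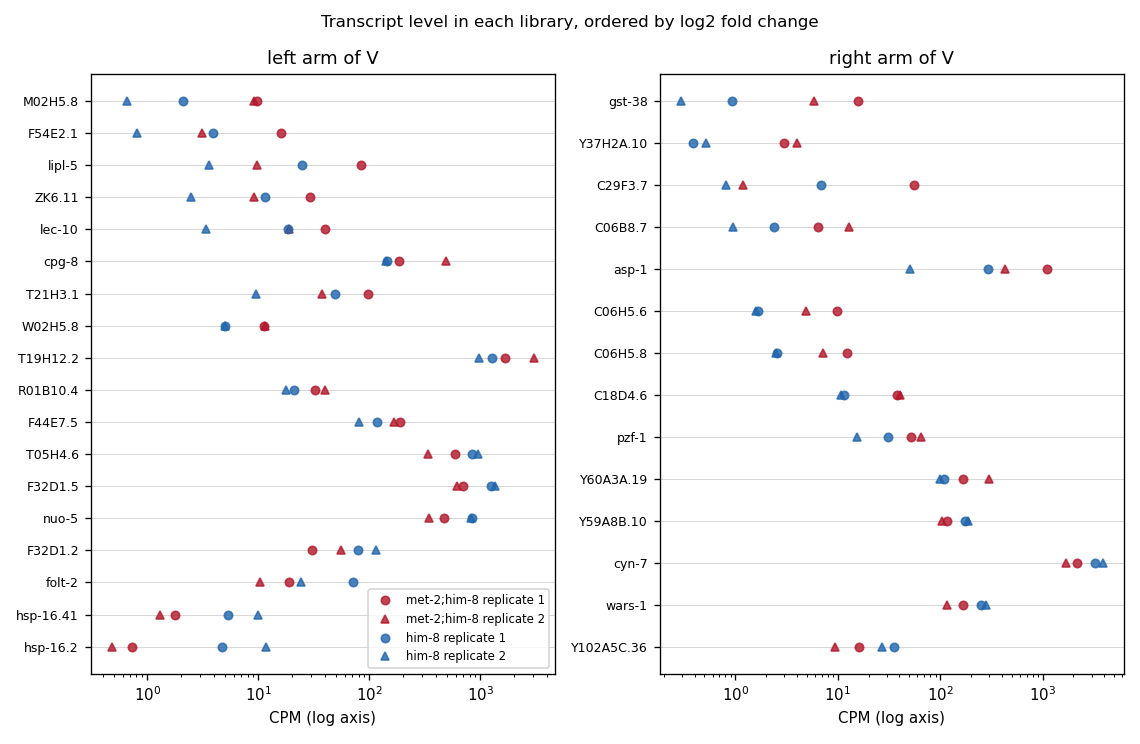
CPM in each library, on a log axis, for arm genes with the smallest unadjusted p per arm and direction or called when the replicate number entered the fit, ordered by log2 fold change. For C18D4.6, W02H5.8, nuo-5 and F32D1.5 the replicates lie close together and the genotypes apart, while for lipl-5 and C29F3.7 the genotypes overlap.

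The gene lists describe the arms by function. In the list of translation and respiration genes 4 of 9 arm members were tested, the other 5 being ribosomal protein genes listed at 0. Of the 4 none had an unadjusted p below 0.05 in the higher direction and 3 had one in the lower direction, namely nuo-5, wars-1 and atp-4, an ATP synthase subunit gene at 275 and 279 CPM in met-2;him-8 against 353 and 462 CPM in him-8. The fourth, fars-2, a phenylalanyl-tRNA synthetase gene that overlaps Y116F11B.14, measured 129 and 118 CPM against 141 and 146 CPM. The median log2 fold change of the 4 was -0.73, beside -0.24 for the 121 tested genes of this list in the genome, of which 19 were lower and 0 higher.

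In the list of chaperone, proteasome and ubiquitin genes all 14 arm members were tested, 3 were lower and 0 higher, beside 16 and 0 of 144 in the genome. The 3 were hsp-16.2, hsp-16.41 and rpt-2, which encodes an ATPase subunit of the proteasome cap and measured 425 and 441 CPM in met-2;him-8 against 558 and 738 CPM in him-8. The chaperone genes sti-1 (580 and 789 CPM against 682 and 689 CPM) and crt-1, or calreticulin (636 and 796 CPM against 745 and 845 CPM), overlapped between genotypes. On the left arm 8 of the 9 members of this list had a log2 fold change of 0 or below and on the right arm 4 of 5 lay above 0, with medians of -0.49 and 0.11.

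Genes of meiosis and cell division gave no arm member with an unadjusted p below 0.05. The 6 meiosis and repair genes had a median log2 fold change of 0.32, beside 0.04 for the 89 of the genome. The synaptonemal complex genes syp-1 and syp-2 measured 14.0 and 70.1 CPM against 16.6 and 52.2 CPM, and 64.0 and 43.1 CPM against 47.3 and 66.1 CPM. Both overlapped between genotypes, as did the kinase genes chk-1, of the DNA damage checkpoint, at 190 and 263 CPM against 191 and 166 CPM, and chk-2, which governs meiotic pairing, at 27.8 and 23.0 CPM against 31.7 and 17.9 CPM.

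The 8 cell division genes had a median log2 fold change of 0.35, beside 0.11 for the 138 of the genome. Cyclin B3, cyb-3, measured 1323 and 1668 CPM in met-2;him-8 and 1104 and 1179 CPM in him-8. The helicase gene mcm-7 measured 974 and 1088 CPM against 827 and 728 CPM, and the kinetochore gene knl-3 measured 262 and 356 CPM against 239 and 228 CPM. These 3 genes were higher in both met-2;him-8 libraries, while mcm-3, another subunit of the replicative helicase, overlapped at 475 and 630 CPM against 448 and 508 CPM.

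Of 11 chromatin genes on the arms 9 were tested, with a median log2 fold change of 0.23 beside 0.10 for the 219 of the genome, and none had an unadjusted p below 0.05. The histone deacetylase gene hda-1 measured 309 and 354 CPM in met-2;him-8 and 300 and 317 CPM in him-8, and lin-40, of the NuRD complex, 183 and 243 CPM against 215 and 155 CPM. Neither was separated between genotypes, nor was the linker histone gene hil-4, at 476 and 672 CPM against 448 and 529 CPM. For prmt-1, which was lower in both met-2;him-8 libraries, the values were 1222 and 1174 CPM against 1305 and 1749 CPM.

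The small RNA list had 8 tested members of 15, with a median log2 fold change of 0.07 and none with an unadjusted p below 0.05. The P granule gene pgl-3 measured 593 and 683 CPM in met-2;him-8 and 736 and 799 CPM in him-8, and mut-15, which acts in the production of secondary small RNAs, measured 96.1 and 82.7 CPM against 80.6 and 63.1 CPM. The first was lower and the second higher in both met-2;him-8 libraries, each by less than 0.35 on the log2 scale, and pqn-51 overlapped at 254 and 291 CPM against 266 and 246 CPM. Of the 4 germline RNA regulators the median was -0.02, with lsm-5, an RNA decay and splicing factor, at 48.5 and 113 CPM against 70.8 and 96.5 CPM. The list also held rme-1, an endocytic recycling gene, at 169 and 264 CPM against 163 and 266 CPM.

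Of 91 genes for xenobiotic and lipid metabolism 43 were tested, and 3 were higher and 0 lower, beside 6 and 4 of 172 in the genome. The 3 were gst-38, oac-49 and mrp-7, all on the right arm. The ABC transporter gene mrp-7 measured 523 and 553 CPM in met-2;him-8 and 377 and 261 CPM in him-8, and oac-49, of an acyltransferase-like family, measured 0.881 and 0.660 CPM against 0 and 0.0731 CPM. On the left arm dhs-13, a short-chain dehydrogenase gene, measured 147 and 154 CPM against 171 and 148 CPM, and ugt-64, a glucuronosyltransferase gene, 69.7 and 177 CPM against 79.1 and 147 CPM. Both of these overlapped between genotypes, as did haf-3, a half-molecule ABC transporter gene of the right arm, at 211 and 162 CPM against 170 and 141 CPM.

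In the list of pathogen response and secreted protein genes 12 of 45 were tested, and 10 of the 12 had a log2 fold change above 0, with a median of 1.001 beside 0.56 for the 91 of the genome. The only member with an unadjusted p below 0.05 was irg-3, an infection response gene at 3.16 and 2.07 CPM in met-2;him-8 and 0.540 and 0.731 CPM in him-8. The gene dod-19 measured 16.4 and 10.1 CPM against 9.51 and 3.44 CPM, cpr-5, a cysteine protease gene, 41.7 and 20.8 CPM against 37.7 and 7.16 CPM, and dct-16 measured 209 and 91.4 CPM against 135 and 47.8 CPM. In these 3 genes, as in asp-1, the highest value was in met-2;him-8 replicate 1 and the lowest in him-8 replicate 2, as in the summed intestinal markers, whose part in this list was not tested.

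The list of neuronal genes had 31 tested members of 53, with 1 higher and 1 lower and a median log2 fold change of 0.26 beside 0.10 for the 286 of the genome. The higher member was the potassium channel gene egl-2, at 5.96 and 0.930 CPM in met-2;him-8 and 0.501 and 0.292 CPM in him-8, and the lower one was unc-60, which encodes the actin regulator cofilin, at 340 and 299 CPM against 485 and 490 CPM. Other abundant members are not particular to neurons: the secretory GTPase gene rab-1 measured 253 and 266 CPM against 349 and 354 CPM, and the septin gene unc-61 measured 118.96 and 144 CPM against 112 and 150 CPM. The summed neuronal markers overlapped between genotypes, at 114 and 160 CPM against 137 and 143 CPM.

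The F-box and SKP1-related list, which the family rule had reduced, had 8 tested members of 29, none with an unadjusted p below 0.05, and a median log2 fold change of 0.25. It contains fog-2, which allows hermaphrodites to make sperm, and ftr-1, the adjacent tandem copy. The fog-2 transcript measured 125 and 109 CPM in met-2;him-8 and 100 and 97.9 CPM in him-8, and ftr-1 measured 68.7 and 65.9 CPM against 52.0 and 54.2 CPM. Both were higher in both met-2;him-8 libraries, with log2 fold changes of 0.24 and 0.34, but reads of near-identical copies may have been assigned to either. The cullin gene cul-3 measured 362 and 443 CPM against 365 and 412 CPM, and overlapped.

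**Figure D5:**
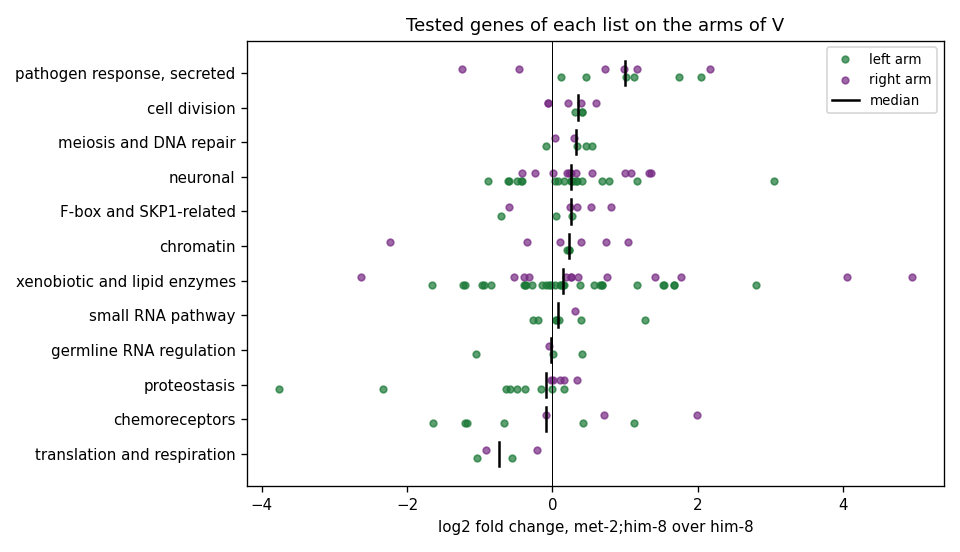
Log2 fold change, met-2;him-8 relative to him-8, of each tested arm gene of the 12 functional lists, coloured by arm, with the median over both arms as a black bar. The medians run from -0.73 for translation and respiration to 1.001 for pathogen response and secreted proteins, and the points of most lists lie on both sides of 0.

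Of the 58 arm genes with an unadjusted p below 0.05, 8 (13.8%) lay in 4 pairs of neighbouring tested genes that differed in the same direction, beside 43 of 526 (8.17%) over the genome. The 2 percentages are not directly comparable. Neighbours on the arms were counted without the left-out families, and those over the genome among all tested genes. The arms also had a larger share of tested genes below that p, 6.91% against 4.84%. The pairs were hsp-16.2 with hsp-16.41, and Y32G9A.8 with Y32G9A.6 on the left arm, and C53A5.2 with ril-1, and gst-38 with pzf-1 on the right arm. Y32G9A.8 measured 130 and 206 CPM in met-2;him-8 against 107 and 82.8 CPM in him-8, and Y32G9A.6 measured 4.40 and 1.38 CPM against 0.733 and 0.292 CPM. In the other direction ril-1 measured 345 and 264 CPM against 449 and 591 CPM, and C53A5.2 measured 0.363 and 0.210 CPM against 1.14 and 1.61 CPM. In all 4 pairs both genes were separated between genotypes.

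The arm genes named by the largest differences lie on V, in the coordinates of the deposited table, whose genome build is not given in the sources used here. On the left arm hsp-16.2 spans V:1804440-1804923 and hsp-16.41 spans V:1805270-1805759, nuo-5 spans V:2698976-2706734 and F32D1.5 spans V:4369455-4371328. On the right arm gst-38 spans V:15915231-15915917, cyn-7 spans V:15186666-15187343 and C18D4.6 spans V:17535806-17538329. None of these 7 genes overlaps another gene of the table.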

How the data were processed

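Polyadenylated RNA was sequenced with a kit that does not mark strand. The authors deposited an estimated count of reads per gene and library, without depth scaling, and a separate table of gene positions with Cuffdiff results, whose RPKM, fold change and p-value columns were not used. The submitters' processing notes name STAR and Cuffdiff 2.2.1. The members and gene lists were chosen with earlier results of these data known. Between 53 and 66 values per library were not whole, so counts were rounded. edgeR 4.0.16 (R 4.3.3) was used with TMM scaling, the default expression filter, the quasi-likelihood test and Benjamini-Hochberg adjustment over 10875 genes at a threshold of 0.05, and standard errors came from the F statistic. DESeq2 1.42.0 was an alternative, as were other scalings and filters, shifted borders, the families kept in, the replicate number as a block and each library left out; leaving out libraries in the outer and inner stretches of the arms, and the split at 3 megabases, were added after seeing the data. Shares of reads were compared by exact permutation. Exon lengths came from the WBcel235 annotation, which covered 2593 of the 2655 genes, and starts are printed counting from 1. Named genes were those called in the edgeR fit or the block fit, the 4 smallest unadjusted p-values per arm and direction with separated genotypes and 10 or more reads in all libraries, the 4 highest levels per arm, the 2 highest per list and arm, genes with 0 reads in 1 genotype only, and fog-2 with ftr-1. Further genes (egl-2, irg-3, oac-49, rpt-2, unc-60, the genes at the borders and those in neighbouring pairs) were chosen after their values were seen. On simulated data 66 of 90 genes changed by 3 on the log2 scale were recovered, 20 of 94 changed by 1.5, and 6 of 10202 unchanged genes were called. The simulated spread between libraries followed the trend over transcript level, without the differences in spread between real genes. The recovered shares are thus not a measure of recovery in the real data. Labels do not say that replicates came from separate cultures, so the p-values measure the spread between these samples. Single genes with 3 reads correspond to 0.060 to 0.210 CPM, and counting error alone underlies that limit.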

Additional observations from a re-analysis of the deposited data

How the results depend on the processing

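No called gene changed direction, since none was called, but uncalled values did. The count of arm genes past the adjusted threshold (0 on both arms) was 0 under the other scalings, the 1 CPM filter, each library left out, shifted borders and the families kept in. It was 11 (left) and 6 (right) without a filter, where 113 of 17144 genes were called over the genome. With DESeq2 it was 2 and 3, beside 26 over the genome, and with the replicate block 15 and 12, where 8 and 10 were higher. The block called 144 of 10875 genes (1.32%) and raised the prior degrees of freedom from 3.07 to 74.97. Without a filter the prior degrees of freedom were infinite, so single genes were given no spread of their own. Same-numbered replicates deviated together (correlation 0.36), but the labels do not call the number a batch. Genes higher at an unadjusted p below 0.05 numbered 41 (left) and 43 (right) without a filter and 35 and 33 with the replicate block, and ranged from 1 to 55 and from 4 to 40 with each library left out. Lower genes numbered 17 and 14 without a filter, ranged from 5 to 29 and from 2 to 30 with each library left out, and on the right arm numbered 14 with DESeq2, 16 with the replicate block and 14 with the borders moved inwards. Without a filter 972 and 865 genes entered the fit. The median log2 fold change on the left arm was 0.033 without a filter and 0.086 to 0.278 with each library left out, and on the right arm 0.040 to 0.252. The difference in the right arm's share of reads was 0.157 percentage points with the borders moved outwards, against -0.064, and ranged from -0.267 to 0.139 with each library left out, while that of the left arm (0.164) ranged from 0.050 to 0.278. Higher genes outnumbered lower ones on each arm in every setting that kept all libraries, but not in every fit with 1 library left out. The median level was 0.291 (left) and 0.171 (right) CPM per kilobase without a filter and 14.8 and 18.7 with the 1 CPM filter, since these change which genes enter, 3.90 on the left arm with the families kept in and 6.17 on the right arm with borders moved inwards. With each library left out it was 1.94 to 4.15 and 1.84 to 4.24. The share of higher genes among those at an unadjusted p below 0.05 over the genome was 37.8%, 50.5% with DESeq2, 51.5% with the replicate block and 60.2% without a filter, and on the arms 65.5%, 67.2%, 69.4% and 73.0%. Of 79 named genes with a value, 1 changed sign with RLE scaling, no filter or DESeq2 each, and 8 to 13 when a library was left out. Other causes were not tested, and with 2 libraries per genotype small differences were not detectable.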
